A study of Caenorhabditis elegans with 2 samples.

Results

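The synaptotagmin family of Caenorhabditis elegans comprises 7 genes, snt-1 to snt-7, and the binding of the transcription factor UNC-3 was examined at each of them. All 7 symbols matched the Ensembl release 115 annotation, out of 19985 protein-coding genes. The locus of a gene was its body plus 5000 bp upstream. The family was chosen from the measured peaks, because snt-1 and snt-3 carry reproducible UNC-3 peaks over the binding palindrome of the factor; the signal of those peaks, their place in the reproducible list and their palindromes are therefore described below without any test. UNC-3 occupancy was mapped with ChIP-seq, in which DNA bound by a precipitated protein is sequenced, in 2 biological replicates of 1 group. These were whole hermaphrodite late embryos of strain OP578, genotype unc-119(tm4063) III; wgIs578, taken 4 h after egg bleaching. The strain stably expresses UNC-3 with GFP and FLAG at its C terminus, and the precipitation used an antibody to GFP. Both replicates carry the same unc-119 allele and the same transgene, no untagged or unc-3 mutant embryos were analysed here, and chromatin of all embryonic cells was mixed, so the cells in which a site was occupied cannot be told apart.

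Synaptotagmins are membrane proteins with paired calcium-binding C2 domains that sit on synaptic and secretory vesicles and couple calcium entry to membrane fusion through the SNARE proteins. SNT-1 is the main calcium sensor for fast transmitter release in C. elegans, and SNT-3 acts together with it in calcium-triggered release at the neuromuscular junction. UNC-3 belongs to the Collier/Olf/EBF (COE) family, whose members bind a palindromic site as dimers, and in the worm it sets and maintains the identity of cholinergic motor neurons. Whether a synaptotagmin gene was expressed in these embryos was not measured.

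Peaks were deposited in 4 lists in the genome build ce11. There were 20517 peaks for replicate 1 and 21474 for replicate 2, both with background peaks retained, and the pooled list, called on both replicates together, held 15515. The list that passed the irreproducible discovery rate (IDR) threshold, which compares peak ranks between replicates, held 754 peaks. These were the 754 strongest of the pooled list, and not each of them ranked alike in both replicates. The weakest had rank 15064 in replicate 1 and rank 385 in replicate 2. A peak is called reproducible here when it is in this list. The signal is the strength that the authors' peak caller gave each peak. The scale of this value is not stated and the depth is unknown, so signals are compared within a list, as values or as ranks in which 1 is the strongest. Signals ran from 20.1 to 996.8 in the pooled list, with a median of 25.5, and the weakest IDR peak had 60.2.

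The sequences under the strongest pooled summits of snt-1, snt-3 and snt-2 are shown because the first 2 peaks, both reproducible, hold the palindrome and the last, the strongest of the family below the threshold, does not. Each is 121 bases long, has the summit at base 61, and is written 5′ to 3′ on the strand of its gene, from the RefSeq WBcel235 genome. Capitals mark the COE palindrome TCCCNNGGGA, which has 8 fixed bases around 2 free ones and reads the same on both strands. The snt-1 window is chrII:6812662-6812782 on the plus strand, in an intron. The snt-3 window is chrV:1360355-1360475 on the minus strand, across an intron and exon boundary. The snt-2 window is chrIII:793916-794036 on the minus strand, between genes, and holds no capitals, since neither the palindrome nor a copy with 1 mismatch lay within 100 bp of its summit.
snt-1: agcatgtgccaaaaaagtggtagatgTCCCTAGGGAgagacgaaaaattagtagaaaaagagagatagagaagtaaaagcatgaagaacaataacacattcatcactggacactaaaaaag
snt-3: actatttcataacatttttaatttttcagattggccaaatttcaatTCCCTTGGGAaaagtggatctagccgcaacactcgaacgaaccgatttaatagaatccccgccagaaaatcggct
snt-2: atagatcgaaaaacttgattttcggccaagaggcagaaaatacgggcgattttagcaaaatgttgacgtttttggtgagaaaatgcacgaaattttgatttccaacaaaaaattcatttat
The bases flanking the palindrome differed between snt-1 and snt-3, as did its 2 free bases. Between 28.9 and 43.0% of the bases were G or C in the 6 windows read in this way, with 36.4% at snt-1, 38.8% at snt-3 and 33.1% at snt-2.

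The snt-1 gene (WBGene00004921, chromosome II, 6810963 to 6816433, plus strand) had 1 IDR peak, at 6812482 to 6812961. Its summit at 6812722 had a signal of 95.2 and rank 282. It lay in intron 2 of both annotated transcripts, an intron of 1096 bases, 1754 bp downstream of the nearest transcription start site (TSS). The palindrome stood at 6812688 to 6812697, 701 bases into the intron and 385 bases before its end, and its centre was 29.5 bp from the pooled summit. In replicate 1 the summit was at 6812724 with a signal of 37.6 (rank 455), and in replicate 2 it was at 6812669 with a signal of 58.8 (rank 220). The replicate summits thus fell on opposite sides of the palindrome, 31.5 and 23.5 bp from its centre. Replicate 2 had a further summit at 6812868, with a signal of 24.9, that had no counterpart in replicate 1.

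The remaining signal at snt-1 was weaker. Upstream of the gene the pooled list had a summit at 6809021, 1942 bp before the TSS, with a signal of 33.9 and rank 3067. It was present in both replicates, with signals of 14.7 at 6809043 in replicate 1 and 12.1 at 6809070 in replicate 2, where a stronger summit of 21.0 lay close by at 6808860. This summit was 1759 bp from the start of the divergent gene F31E8.5, so it is in the upstream region of both genes. A pooled summit of 20.2, close to the lowest signal in the list, lay in the 3′ UTR at 6816285 and had a counterpart only in replicate 2, with 13.0. Replicate 1 had summits of 11.4 and 14.8 elsewhere in the gene, and replicate 2 had one of 10.3 upstream, none of which appeared in the pooled list.

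The snt-3 gene (WBGene00004923, chromosome V, 1358178 to 1371014, minus strand) had the strongest peak of the family. Its IDR summit at 1360415, in a peak from 1360175 to 1360654, had a signal of 120.0 and rank 163. Unlike the snt-1 peak, it lay in coding sequence, in an exon of 333 bases that is exon 5 of 7 in 2 of the transcripts and exon 4 of 6 in the shortest one. The palindrome, at 1360420 to 1360429, began 17 bases after the start of that exon, so that the splice acceptor of the preceding intron is visible upstream of it in the sequence above. Replicate 1 placed the summit at 1360457 with a signal of 53.7 (rank 186), inside the intron. Replicate 2 placed it at 1360421 with a signal of 66.7 (rank 157), inside the exon. The palindrome centre was 32.5 bp from the summit in replicate 1, 3.5 bp in replicate 2 and 9.5 bp in the pooled list. Of the 37 IDR peaks with the palindrome, 18 had their summit in introns, 17 between genes and 2 in coding exons, and snt-3 was one of the latter 2.

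The 3 transcripts of snt-3 start at 1371014, 1363805 and 1361318. The IDR summit was 903 bp downstream of the last of these and 10599 bp downstream of the first. It was also 2264 bp upstream of the start of the next gene, Y75B7AL.2, which is transcribed in the same direction and begins 27 bp beyond the end of snt-3. The peak therefore belongs to the locus of both genes under the rule used here. No other IDR summit lay in the snt-3 locus. The pooled list had weaker summits at 1372609, upstream of the longest transcript, with a signal of 36.4, at 1358975 with 26.2 and at 1365563 with 24.6, the last of these in the long intron 1. The upstream summit was found in replicate 1 with 16.5 and in replicate 2 with 21.1, whereas the intron 1 summit had a counterpart of 21.4 in replicate 1 alone and the summit at 1358975 one of 14.4 in replicate 2 alone.

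**Figure D1:**
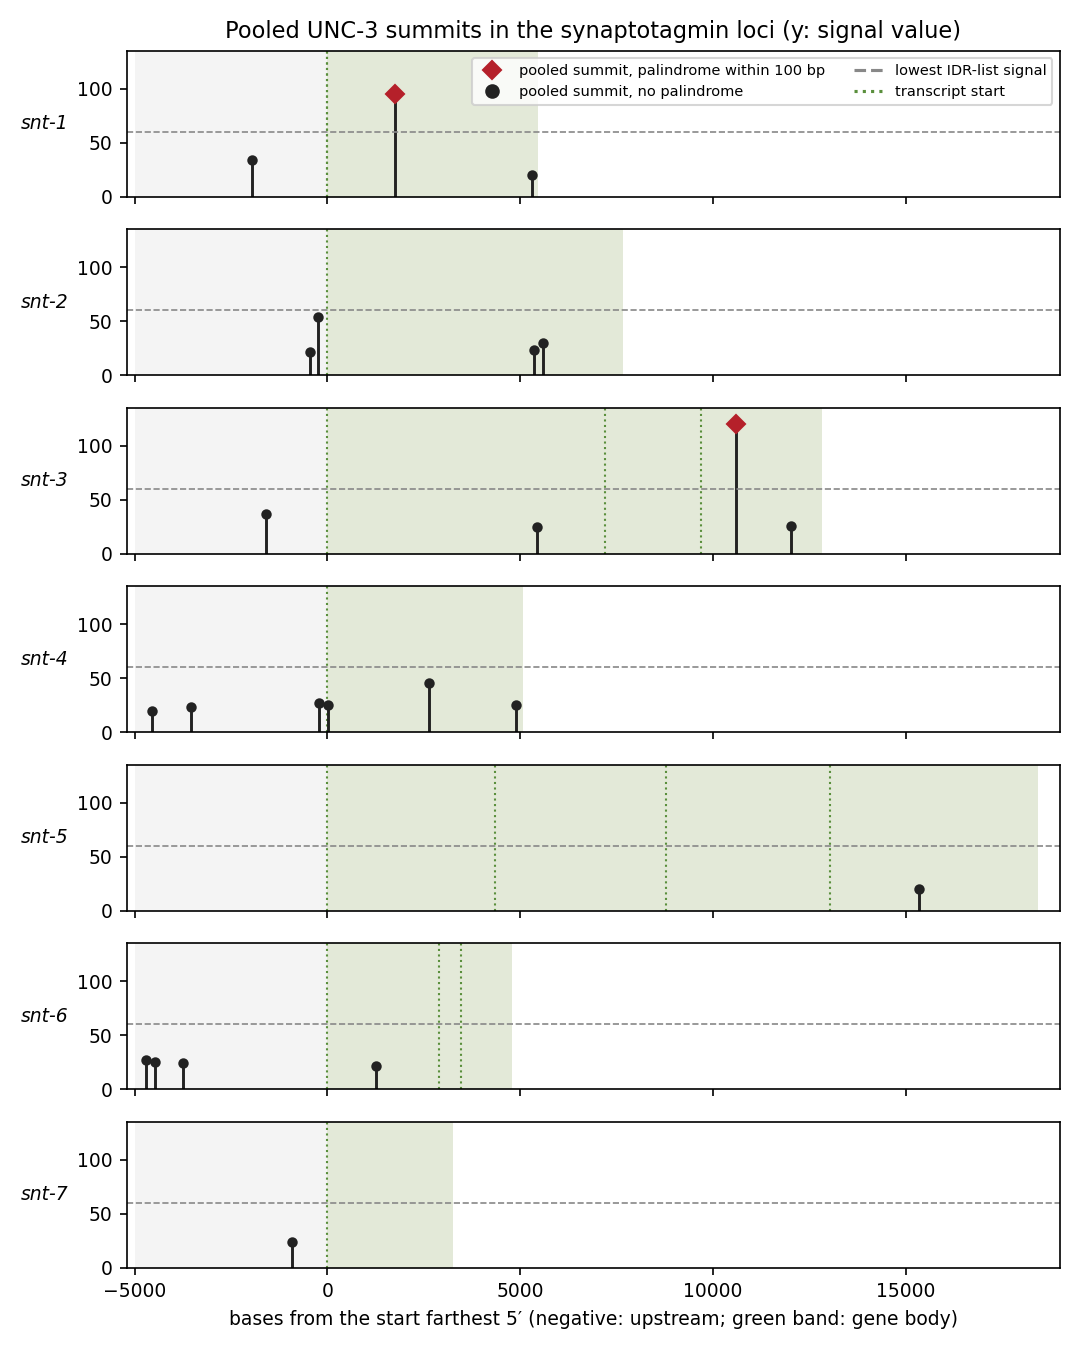
Signal value of every pooled summit (y axis) against its distance in bases from the start farthest 5′ of each synaptotagmin gene (x axis), 1 panel per gene; diamonds have the palindrome within 100 bp and circles do not. The snt-1 and snt-3 summits, at 95.2 and 120.0, are the only ones that exceed the lowest IDR signal of 60.2, and both lie inside the gene body.

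No IDR summit lay in the loci of the other 5 genes. The count of 2 of 7 members (snt-1 and snt-3) stands beside 6.35% of all protein-coding loci with an IDR summit, and nothing is read from it, since these peaks chose the family. The member nearest to the threshold on the inside was snt-1, with 95.2, and the nearest on the outside was snt-2, with 54.2; the strongest pooled peak outside the IDR list had 60.1. All 7 loci held at least 1 pooled summit, 23 in all, compared with 60.3% of protein-coding loci. Member loci were long, with a median of 10471 bp against 7026 bp over all protein-coding genes, and they held a median of 0.287 pooled summits per kb against 0.129. Over the 5 members without an IDR summit the median was 0.316 per kb.

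At snt-2 (WBGene00004922, chromosome III, 786070 to 793733, minus strand) the strongest summit was at its start. The pooled summit at 793976 had a signal of 54.2 and rank 958, and lay 243 bp upstream of the only annotated TSS. Both replicates had it, with 24.9 at 793981 in replicate 1 (rank 1292) and 27.7 at 794005 in replicate 2 (rank 1212). The ribosomal protein gene rps-29 starts 324 bp from the same summit in the opposite direction, and a snoRNA gene inside rps-29 lies 423 bp away, so the summit stands between divergent starts and cannot be assigned to snt-2 alone. A weaker pooled summit of 21.9 lay 442 bp upstream, nearer to rps-29. Inside the gene, pooled summits of 29.7 at 788145 (intron 5) and 23.4 at 788366 (intron 4) lay far from the TSS; the first had a counterpart in replicate 2 alone, with 22.9, and the other had 11.5 in replicate 1 and 13.4 in replicate 2.

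At snt-4 (WBGene00004924, chromosome I, 6436112 to 6441192, plus strand) the pooled list had 6 summits, the most of any member. The strongest, at 6438749 in intron 3, had a signal of 45.6 and rank 1381, and lay 2637 bp downstream of the TSS. In replicate 1 it corresponded to a summit of 24.3 at 6438660, in a coding exon, with another of 19.1 at 6438881, and in replicate 2 to one of 22.2 at 6438750. Around the start of the gene the pooled list had summits of 27.3 at 6435894 and 24.9 at 6436121, which were 218 bp upstream and 9 bp downstream of the TSS. Here the replicates differed in position, with 18.9 at 6436100 in replicate 1 and 27.0 at 6435876 in replicate 2. The remaining pooled summits had 25.1 in the last exon and 23.1 and 20.1 in the upstream region, which is also upstream of, or in 1 case inside, the divergent gene comp-1.

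The other 3 genes had only weak summits. At snt-5 (WBGene00004925, chromosome V, 1393112 to 1411559, minus strand), the longest of the family, 1 pooled summit of 20.4 (rank 14821) lay in an intron at 1396200; replicate 1 had it with 17.5 and replicate 2 did not. None of the 4 replicate 1 summits and 3 replicate 2 summits at snt-5, which ran from 12.4 to 18.3 in replicate 1 and from 10.8 to 15.1 in replicate 2, coincided. At snt-6 (WBGene00004926, chromosome II, 745418 to 750212, minus strand) pooled summits of 27.1, 25.7 and 24.1 lay 4689, 4476 and 3753 bp upstream of the nearest TSS, and one of 21.6 in an intron. The 3 upstream summits were nearer to the start of C08G5.7, at 2019, 2232 and 2955 bp, though none lay in its locus. Of the 4 pooled summits at snt-6, 1 had a summit within 100 bp in both replicates. At snt-7 (WBGene00011682, chromosome X, 15195883 to 15199152, minus strand) a pooled summit of 23.8 lay 905 bp upstream of the TSS, with a counterpart of 15.2 in replicate 1. The only replicate 2 summit at snt-7, of 10.3 at 15201174, was 96 bp from a tRNA gene.

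**Figure D2:**
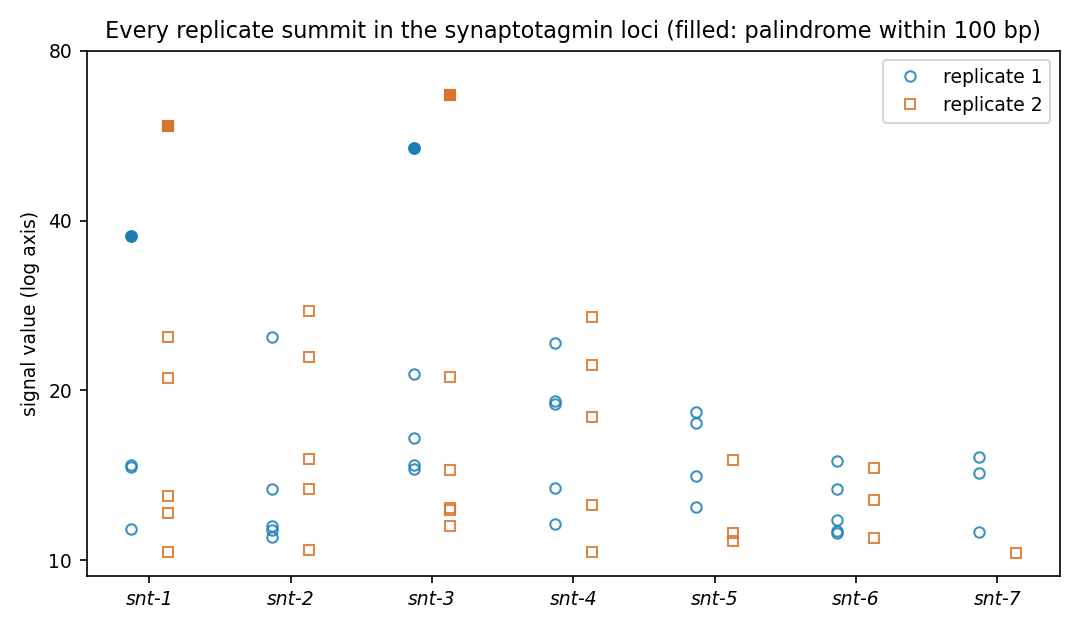
Signal value (y axis, log scale) of every summit in each synaptotagmin locus (x axis), with circles for replicate 1 and squares for replicate 2, each filled where the palindrome lies within 100 bp. Filled symbols at snt-1 (37.6 and 58.8) and snt-3 (53.7 and 66.7) stand above every open symbol of the same replicate. These peaks chose the family, so nothing is read from this. The highest open symbols in replicate 2 are those of snt-2 and snt-4, at 27.7 and 27.0.

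The order of the members by strongest pooled signal was snt-3 (120.0), snt-1 (95.2), snt-2 (54.2), snt-4 (45.6), snt-6 (27.1), snt-7 (23.8) and snt-5 (20.4). In replicate 1 the strongest summit was 53.7 at snt-3, 37.6 at snt-1, 24.9 at snt-2, 24.3 at snt-4, 18.3 at snt-5 and 15.2 at snt-7, with snt-6 just under snt-7. In replicate 2 it was 66.7 at snt-3, 58.8 at snt-1, 27.7 at snt-2, 27.0 at snt-4, 15.1 at snt-5, 14.5 at snt-6 and 10.3 at snt-7. Both replicates thus gave snt-3, snt-1, snt-2 and snt-4 in this order, although snt-2 and snt-4 were separated by less than 1 signal unit in each, and the order of snt-5, snt-6 and snt-7 was not shared. The strongest summit of a locus was not always the same one. At snt-4 the 27.0 of replicate 2 was by the gene start, and its summit in intron 3 had 22.2. At snt-5 the strongest summits were at 1406764 in replicate 1 and 1402883 in replicate 2. Among all protein-coding loci, 98.6% had a lower strongest pooled signal than snt-3, 97.4% than snt-1, 92.0% than snt-2 and 89.3% than snt-4. The shares were 66.2% for snt-6, 54.6% for snt-7 and 41.3% for snt-5, loci without any pooled summit included.

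**Figure D3:**
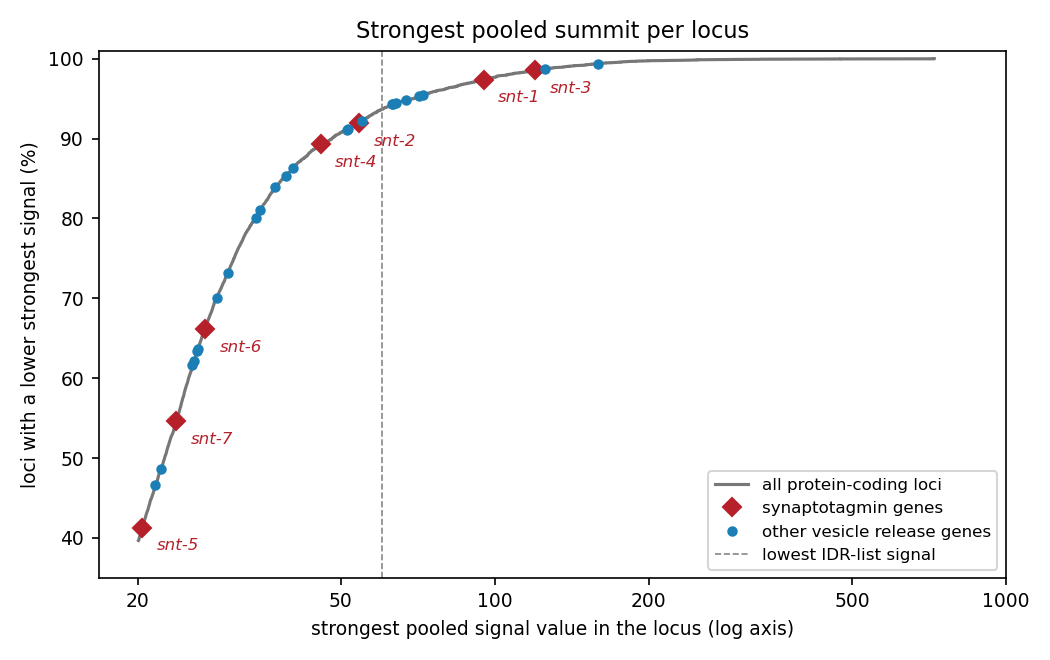
Strongest pooled signal value per locus (x axis, log scale) against the share of protein-coding loci with a lower one (y axis, percent), for the synaptotagmin genes (diamonds), the other vesicle release genes with a pooled summit (circles) and all loci (line). The members spread along the whole curve, with snt-3 and snt-1 above 97% of loci and snt-5 at 41.3%.

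A peak in each replicate overlapped 753 of the 754 IDR peaks, those of snt-1 and snt-3 among them. Presence in both replicates is therefore not particular to these genes. Of the 23 pooled summits in the member loci, 9 (39.1%) had a summit within 100 bp in both replicates, compared with 27.4% of all pooled peaks. Below the IDR threshold it was 7 of 21 (33.3%), compared with 24.1%. Counterparts were found in replicate 1 alone for 5, in replicate 2 alone for 7 and in neither for 2. Per replicate, all 7 loci held a summit in replicate 1 (31 summits) and in replicate 2 (29 summits), against 71.8% and 71.6% of protein-coding loci, so the presence of a summit in these long lists separates few loci.

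For the IDR peaks the replicate summits were 55 bp apart at snt-1 and 36 bp apart at snt-3. Over the 753 IDR peaks matched in both replicates the median distance was 38 bp, and the middle 50% ran from 17 to 72 bp. The signal in replicate 2 was 1.57 times that in replicate 1 at snt-1 and 1.24 times at snt-3, while the median ratio over the matched IDR peaks was 1.15, with quartiles of 0.94 and 1.43. The snt-1 ratio was thus higher than that of 82.3% of IDR peaks, and the snt-3 ratio was nearer to the median. Each replicate list was called separately, so a ratio is read only against the ratios of the other peaks.

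**Figure D4:**
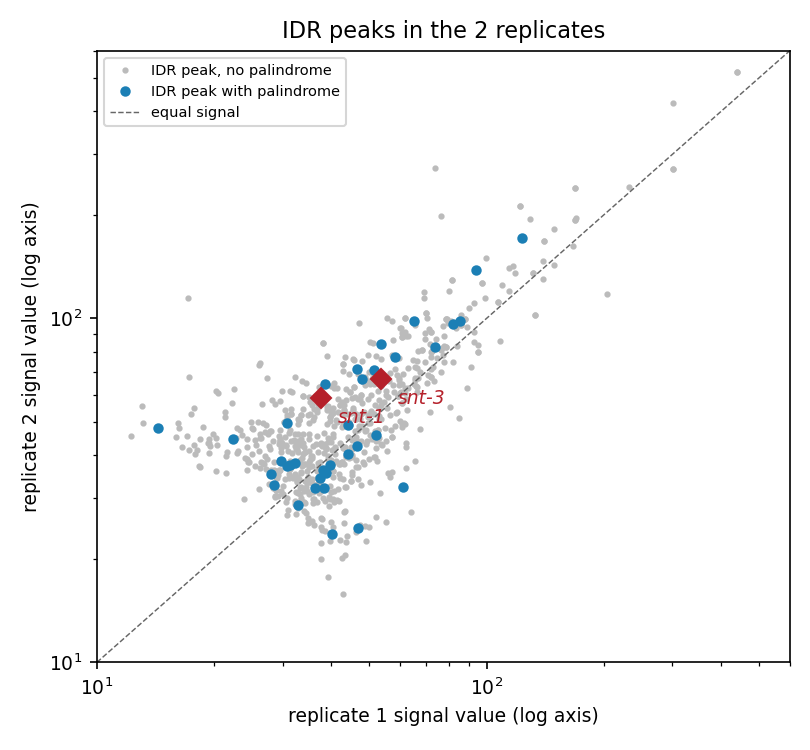
Signal value in replicate 1 (x axis, log scale) against replicate 2 (y axis, log scale) of the 753 matched IDR peaks, with palindrome-bearing peaks as large dots, the synaptotagmin peaks as diamonds and equal signal as a dashed line. Both diamonds lie above the line, snt-1 at 37.6 and 58.8 and snt-3 at 53.7 and 66.7.

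The palindrome was also searched in the loci themselves, without regard to peaks. It occurred 390 times in the nuclear genome and in 2.81% of protein-coding loci. Among the synaptotagmin loci it occurred once at snt-1 and once at snt-3, and it was not found in the sequence of the other 5. Genome-wide, 39 of the 390 copies had an IDR summit within 100 bp and 130 (33.3%) had a pooled summit, and both synaptotagmin copies are among the 39. The family was chosen for these 2 palindromes and their peaks, so nothing is read from their presence or from the shares beside them. An IDR summit with the palindrome lay in 0.24% of protein-coding loci, and a pooled one in 0.861%. With 1 mismatch allowed the search was hardly selective, since 56.8% of loci then held a copy. Copies with at most 1 mismatch numbered 3 at snt-4, 2 each at snt-1 and snt-3, and 1 each at snt-6 and snt-7, and there were none at snt-2 and snt-5. Of the 21 pooled summits in all member loci that lacked the exact palindrome, the weak one of 23.1 upstream of snt-4 was the only one with such a copy within 100 bp. Among the replicate summits without the exact palindrome, those of 24.3 at snt-4 and 14.5 at snt-3 in replicate 1 had one. In replicate 2 the summit of 12.5 upstream of snt-4 had one.

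The copies next to the snt-1 palindrome along the chromosome also carried IDR peaks. The next one to the right was 25767 bp away, in an intron of egl-27, which encodes a chromatin factor, with a signal of 229.5 and rank 30, and egl-27 is the next protein-coding gene beyond snt-1. The next one to the left was 105776 bp away, between genes and nearest to the start of rpy-1, which encodes the worm rapsyn, with a signal of 96.9 and rank 270. These 3 neighbouring palindromes spanned 131553 bp, and chromosome II has 59 palindromes in all, of which 4 had an IDR summit. The snt-3 copy stood by itself. Its neighbours were 213243 and 947419 bp away, and neither had an IDR summit. This arrangement was noticed in the data and was not tested.

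Other palindrome-bearing IDR peaks of similar strength were taken from the order of pooled ranks, over 2 replicates. Around snt-1 these were nearest to the starts of lin-59 (rank 247), rpy-1 (270), gly-2 (291) and hecw-1 (303), with the lowest signal, 92.7, at hecw-1 and the highest at lin-59. In replicate 1 the snt-1 signal of 37.6 was lower than each of theirs, which ran from 38.5 to 52.1, and in replicate 2 its 58.8 lay within their range of 42.5 to 64.4. Around snt-3 they were nearest to dmsr-7 (rank 117), ergi-2 (125), tpa-1 (168) and H14E04.2 (172), with signals from 118.0 to 137.8. The snt-3 signals of 53.7 and 66.7 were within or just under those of its neighbours in rank, which ran from 48.0 to 58.1 in replicate 1 and from 66.8 to 84.4 in replicate 2. On the forward strand the snt-3 palindrome reads TCCCAAGGGA, as does that of dmsr-7, and H14E04.2 has the same site read from the other strand, TCCCTTGGGA. The rpy-1, ergi-2 and tpa-1 copies read TCCCATGGGA, that of hecw-1 reads TCCCAGGGGA, and that of snt-1 reads TCCCTAGGGA. The snt-1 and tpa-1 peaks, like those in lin-59 and hecw-1, lie in introns, and none of the 8 was in a coding exon.

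Synaptotagmins work with the SNARE proteins and their regulators, and 29 other genes were listed by function for comparison. The list held genes of vesicle release and recycling, with other C2-domain protein genes (esyt-2, fer-1, pkc-1 and pkc-2). Its median locus length was 12344 bp, against 7026 bp over all protein-coding genes. IDR summits lay in the loci of 8 of the 29 (27.6%), against 6.35% of protein-coding loci. With 2000 bp upstream it was 4 (13.8%) against 4.29% of protein-coding loci, in the gene body alone 3 (10.3%) against 1.08%, and with the 377 strongest IDR peaks 2 (6.9%) against 3.42%. None of the IDR summits in these loci had the palindrome within 100 bp, and 4.91% of all IDR peaks had it, so 0 is near the share of the list as a whole. The strongest was at unc-41, which encodes a stonin, with a signal of 158.9, in an intron and 68 bp from a snoRNA gene. Next came nsf-1, which encodes the ATPase that takes SNARE complexes apart, with 125.5 at 435 bp upstream of its TSS, in a region shared with adr-1. The remaining 6 genes had signals from 62.4 to 72.4, namely pkc-1 (72.4), unc-104 (71.2 and 62.4), cpx-1 (66.9), dyn-1 (64.2), unc-31 (63.1) and unc-18 (63.0). They encode a protein kinase C, the vesicle kinesin, a complexin, dynamin, the dense core vesicle factor CAPS and the syntaxin partner Munc18. Their signals were all below those of snt-1 and snt-3, whereas those of unc-41 and nsf-1 were above both. The snt-1 and snt-3 peaks chose the family, so no difference is read from this.

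The SNARE genes themselves had no IDR summit. The strongest pooled signal was 34.1 at unc-64 (syntaxin), 30.0 at ric-4 (SNAP-25) and 22.2 at snb-1 (synaptobrevin). It was 39.0 at unc-13 and 54.9 at unc-10, which encode the priming factors Munc13 and RIM with C2 domains of their own. Among the other C2-domain genes, esyt-2, for an extended synaptotagmin, and fer-1, for a ferlin, had no pooled summit in the locus. Replicate 2 alone listed 1 summit at fer-1, and each replicate listed 1 at esyt-2. The fer-1 locus was the only one of the 29 with an exact palindrome, and no pooled or IDR summit lay at that copy. The median of the strongest pooled signal was 45.6 over the 7 synaptotagmin genes, against 39.6 over the 24 listed genes with a pooled summit and 28.5 over all protein-coding loci with one. The first of these medians includes the snt-1 and snt-3 peaks that chose the family, and over the other 5 members it was 27.1, so no difference is read from it.

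Beyond the loci, the nearest IDR summits of the members without one were at different distances. For snt-2 it was 2571 bp outside the locus, downstream of the gene at 783499, with a signal of 68.2. That summit lay just upstream of the start of another gene, ppm-1.G, at 783714. For snt-4 and snt-7 the nearest one was 5560 and 6542 bp outside, with 70.5 and 70.8. The one beyond snt-4, at 6446752, lay just upstream of the start of T23H2.3 at 6446465. For snt-5 the nearest IDR summit was the snt-3 peak, 32697 bp away on the same chromosome, and for snt-6 none was nearer than 118393 bp. The family therefore ranged from genes with a reproducible peak inside the body to one with no reproducible peak within 100 kb.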

How the data were processed

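Peak lists were analysed for 2 biological replicates of 1 group. Each replicate list and the pooled list hold peaks and background, called with a control alignment, and the IDR list was derived from them, per the notes deposited with the samples. The signal score of each peak was given by the authors' peak caller; its scale, like the aligner, the caller and the IDR threshold, is not given in the sources used here. The control was not analysed here, and with the depth unknown no counting interval is given.

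Only the ce11 lists were used, since the genome here is WBcel235, annotated by Ensembl release 115; lists in ce10 were set aside. All per-sample columns of the ce11 lists were assigned. Coordinates are 1-based. A summit was assigned to every locus that contains it. The palindrome was searched with its centre within 100 bp of a summit, with Python 3.11.15, pandas 2.3.3 and NumPy 2.4.6, and the counting was tested on simulated data with planted matches. No statistical test was run, because the members and lists were chosen with earlier results of these data known. Named genes are the members, their neighbours, listed vesicle genes with an IDR summit, and the 2 palindrome-bearing IDR peaks on either side of snt-1 and snt-3 in rank. The SNARE genes, unc-13, unc-10, esyt-2 and fer-1 were named after their values were seen. So were the genes whose starts lie near other member summits or near IDR summits just outside the loci.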

Additional observations from a re-analysis of the deposited data

How the results depend on the processing

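Of 45 alternative values for 13 results, 37 stayed within 1.5 times for a count or within the spread between replicate summits for a distance. No distance changed sign. The distances of snt-2, snt-4 and snt-7 could not move, since each has 1 annotated start. That of snt-6 could not either, since its nearest start is the one farthest 5′. Many member counts could not fall. The snt-1 and snt-3 summits lie in the gene body, with ranks 282 and 163, so shorter loci, peak overlap and the 377 strongest IDR peaks all keep them. Allowing 1 mismatch or taking the whole pooled list can only add members. The tally of 37 therefore gives no support for these peaks. The members with an IDR summit numbered 2 with either replicate left out, when the 754 strongest peaks of the other replicate stood in for the IDR list, and these were snt-1 and snt-3 each time; the IDR summits in member loci likewise numbered 2. The family was chosen because both peaks are in the IDR list, which was made from both replicates. These counts therefore give no independent support. The members with a palindrome at such a summit numbered 2 without replicate 1 and without replicate 2, which gives no support for the same reason. With either replicate left out, the whole list of the other replicate had a summit at 7 members. The 1500 strongest pooled peaks gave 4 members and 4 summits, since snt-2 and snt-4 were added. Loci with 5000 bp on both sides of the gene gave 3 members and 3 IDR summits, since the peak downstream of snt-2 was then included. That peak lies just upstream of the start of ppm-1.G and cannot be assigned to snt-2. Members with a palindrome in the locus numbered 5 with 1 mismatch allowed, a search that most loci pass. The vesicle release genes with an IDR summit numbered 4 with 2000 bp upstream, 3 in the gene body alone and 2 among the 377 strongest IDR peaks, and 6 to 7 with a replicate left out; the shares of all protein-coding loci under the first 3 settings were 4.29%, 1.08% and 3.42%. Measured from the start farthest 5′, the strongest summit was at 10599 bp in snt-3 and 15359 bp in snt-5, because those genes have further starts downstream. No paired analysis was possible because there is 1 group.

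The unknown depth and the single group limit these results: a locus without a summit had none called at this depth, and whether the same peaks occur without the tagged protein was not tested.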
